A study of Mus musculus with 6 samples.

Results

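The microRNAs described here are miR-103 and miR-378, which are processed from introns of genes of energy and lipid metabolism. They were chosen by assay name from the tables of threshold cycles and of relative quantities, and 2 assays of the 517 microRNA assays matched. The guide strand of miR-33 was named in the same choice and was not analysed here. Its opposite arm, miR-33*, is described beside the members, as are miR-378*, the opposite arm of miR-378, and miR-107, the close relative of miR-103.

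RNA came from the aortas of 6 male Apoe–/– mice, which lack apolipoprotein E and develop atherosclerosis on a fat-rich diet. The Dicer_KO group held 3 mice with LysM-Cre and Dicer flox/flox, and the Dicer_WT group 3 littermates with LysM-Cre and Dicer wt/wt, so that Cre and the Apoe deletion were common to both. All mice were fed a diet of 21% crude fat for 12 weeks, starting at 6 to 8 weeks of age. LysM-Cre is active in macrophages, monocytes and granulocytes and not by design in smooth muscle or endothelium, and the cells that had lost Dicer were not identified by these measurements. The RNA was that of the whole vessel, although the labels give macrophage as the cell type. The microRNAs of contractile smooth muscle, miR-143 and miR-145, gave product in every aorta, with Ct values between 11.5 and 16.2. So did the myeloid miR-223, with Ct values between 19.2 and 22.0. These ranges belong to different assays and do not compare their levels. The labels call the 3 samples of a group biological replicates, and the p-values measure the spread between them.

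Dicer is the endonuclease that cuts a microRNA hairpin into its mature arms. An intronic microRNA is transcribed with its host gene, so that host and microRNA can share a promoter. The miR-33 hairpin lies in Srebf2, which encodes a transcription factor of cholesterol synthesis, and its guide strand is known for repressing the cholesterol exporter ABCA1 in macrophages and liver. The miR-103 and miR-107 hairpins lie in Pank genes, which encode the pantothenate kinases that open coenzyme A synthesis. These microRNAs are known for repressing caveolin-1 in insulin signalling and for repressing Dicer mRNA itself. The miR-378 hairpin lies in Ppargc1b, which encodes a coactivator of mitochondrial genes, and miR-378 is abundant in muscle and fat.

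The mature sequences are shown because they decide which assays can be told apart. Each is written 5′ to 3′ from RefSeq on the mouse build GRCm38.p6, with the seed (bases 2 to 8), the part that pairs with target mRNAs, in capitals. Matching older assay names to current arms, miR-103 and miR-107 are the 3p arms and miR-33* is the 3p arm of miR-33, and 3 of the 5 assays described had a mature sequence in that table.
miR-103: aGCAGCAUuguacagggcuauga
miR-107: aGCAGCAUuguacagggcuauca
miR-33*: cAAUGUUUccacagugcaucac
miR-103 and miR-107 have the same seed and differ in 1 of 23 bases, G22C counted from the 5′ end of miR-103. No other mature mouse microRNA in the RefSeq table has this seed. How far the 2 assays cross-react was not tested, and their values are to be read with that limit. The seed of miR-33* is not that of any other microRNA in the table.

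The hairpins are shown because 2 genes make the same miR-103, and 1 hairpin makes both arms of miR-33. Capitals mark the arm that was measured.
Mir103-1: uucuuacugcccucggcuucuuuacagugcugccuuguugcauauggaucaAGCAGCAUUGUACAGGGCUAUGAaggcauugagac
Mir103-2: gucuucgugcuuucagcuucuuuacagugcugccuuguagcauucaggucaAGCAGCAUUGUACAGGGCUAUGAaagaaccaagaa
Mir33: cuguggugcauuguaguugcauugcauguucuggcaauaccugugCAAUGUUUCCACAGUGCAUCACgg
On GRCm38.p6, Mir103-1 lies at chr11:35782396-35782481 on the plus strand, within the span of Pank3. Mir103-2 lies at chr2:131288052-131288137 on the plus strand, within Pank2. The 2 hairpins of 86 bases have the same base at 69 positions when set side by side without gaps, and their measured arms are identical. The miR-103 assay therefore cannot separate the product of Pank3 from that of Pank2. Mir33 lies at chr15:82198122-82198190 on the plus strand, within Srebf2. Mir107 lies at chr19:34820687-34820773 on the minus strand, within Pank1, the remaining kinase gene of this group to carry such a hairpin.

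All 5 assays gave product in all 6 aortas, with Ct values from 18.6 to 27.3, far below the detection limit of Ct 35 used here. Ct is the PCR cycle at which signal crosses a threshold, so that 1 cycle less stands for about 2 times the RNA. Ct values of different assays depend on each assay's efficiency and are not compared as levels. The authors' relative quantity is a linear ratio to small reference RNAs of the same aorta, with the geometric mean of the Dicer_WT aortas at 1. On the first array card, which held miR-103 and miR-107, the reference was the mean of U6, snoRNA135 and snoRNA202. On the second card, which held miR-378, miR-378* and miR-33*, it also took in snoRNA429.

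Neither member, and none of the 3 related assays, passed the test for a difference between the genotypes (limma, adjusted p under 0.05). Of the 377 assays tested, 7 (1.86%) were called lower in Dicer_KO aortas and 0 (0%) higher. Before adjustment, p was under 0.05 for 92 assays (24.4%) in the lower and 9 (2.39%) in the higher direction, and 3 of the 5 assays described here were among them: miR-103 below, miR-378* and miR-33* above. The median log2 fold change of all 377 assays was -0.42, and values of single assays are read against it.

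miR-103 was lower in every Dicer_KO aorta. Its relative quantities in the Dicer_WT aortas were 1.11, 1.00 and 0.896. In the Dicer_KO aortas they were 0.661, 0.573 and 0.521. The groups did not overlap, and the gap between them was wider than the spread within either. The groups also did not overlap in the Ct values, before any reference RNA was used, although there the gap was narrower than the range of either group, at 21.4, 21.8 and 22.0 in Dicer_WT and 22.4, 22.9 and 23.0 in Dicer_KO aortas. The mean relative quantity ± SD was 1.00 ± 0.109 in the 3 Dicer_WT aortas and 0.585 ± 0.0707 in the 3 Dicer_KO aortas. The log2 fold change was -0.78 ± 0.187 (SE), with a 95% interval of -1.24 to -0.32 and a limma adjusted p of 0.0746. On the linear scale this is 0.582 times the Dicer_WT level, and the authors' deposited table gives a fold change of 0.583.

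A lower level with groups that do not overlap was common on this array. In 123 of 377 assays (32.6%) every Dicer_KO aorta lay below every Dicer_WT aorta, and 83 assays had a lower log2 fold change than miR-103. Set against the median of all assays, miR-103 lay 0.36 lower on the log2 scale. In whole vessels, fewer cells of a type and less of a microRNA per cell cannot be told apart. All 5 macrophage and myeloid markers were on the cards, and 0 of the 5 passed in limma. Their mean log2 relative quantity was -0.54 to 0.34 in Dicer_WT and -2.01 to -1.30 in Dicer_KO aortas, but miR-147 among them gave no product in any Dicer_KO aorta and was set to Ct 35 there. Over the 4 markers detected in all 6 aortas, a choice made after the data were seen, the range was -0.23 to 0.23 in Dicer_WT and -1.61 to -0.74 in Dicer_KO aortas. The members differed, with miR-511 at -1.99, miR-223 at -1.66 and miR-342-3p at -1.33, and the pan-leukocyte miR-142-3p at -0.07 with overlapping groups (adjusted p = 0.802). The 2 smooth muscle markers had -0.15 to 0.13 in Dicer_WT and -0.82 to -0.19 in Dicer_KO aortas, and the endothelial marker miR-126-3p had -0.18 to 0.10 and -0.50 to 0.44. The part of these markers in the value of miR-103 was not tested.

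miR-107, which differs from miR-103 in a single base, did not part the groups. Its relative quantities were 0.934, 1.06 and 1.01 in Dicer_WT aortas, a narrow range. In Dicer_KO aortas they were 0.597, 0.839 and 1.14, from below all Dicer_WT aortas to above them. The log2 fold change was -0.27 ± 0.271 (SE, limma adjusted p = 0.468), with a 95% interval of -0.94 to 0.40, which includes the value of miR-103. It turned to 0.10 with mean centring, 0.16 after quantile normalization and 0.24 relative to U87 and Y1.

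The difference between the 2 relatives can be read within each aorta, where the reference RNAs cancel because both assays were on 1 card. The log2 relative quantity of miR-107 minus that of miR-103 was -0.25, 0.08 and 0.18 in Dicer_WT aortas. It was -0.15, 0.55 and 1.13 in Dicer_KO aortas. Replicate 1 of the Dicer_KO aortas lay inside the Dicer_WT range and the other two above it. The mean difference between the genotypes was 0.51 (exact permutation p = 0.3, two-sided, and 0.3 adjusted over the 3 such differences computed). With 3 aortas a group the lowest p possible in this test is 0.1, so it could not pass 0.05. It therefore does not decide whether miR-103 and miR-107 changed unequally. Without Dicer_KO replicate 1 the mean difference was 0.84 and without Dicer_KO replicate 3 it was 0.20.

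**Figure D1:**
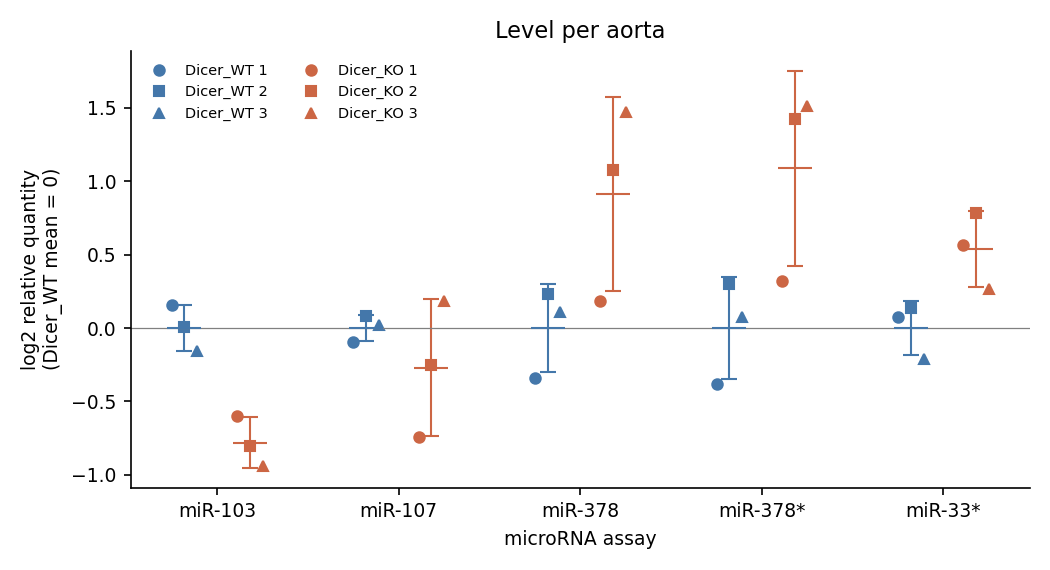
Log2 relative quantity (vertical axis, Dicer_WT mean at 0) of 5 microRNA assays in 6 aortas. Blue is Dicer_WT and orange Dicer_KO, symbols mark the replicate, and bars show mean ± SD (n = 3 each). miR-103 is lower in all Dicer_KO aortas, whereas for miR-378 and miR-378* Dicer_KO replicate 1 lies near the Dicer_WT aortas and replicates 2 and 3 lie well above them.

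miR-378 was on average higher in Dicer_KO aortas, against the direction of most of the array, but the aortas differed. Its relative quantities in Dicer_WT aortas were 0.789, 1.17 and 1.08. In Dicer_KO aortas they were 1.14, 2.11 and 2.77. Replicates 2 and 3 of the Dicer_KO aortas lay above every Dicer_WT aorta, and replicate 1 lay within the Dicer_WT range, so the groups overlapped. In Ct the Dicer_WT aortas were at 19.9, 19.6 and 19.8 and the Dicer_KO aortas at 19.7, 19.0 and 18.6. The mean relative quantity ± SD was 1.01 ± 0.200 in the 3 Dicer_WT aortas and 2.01 ± 0.821 in the 3 Dicer_KO aortas. The log2 fold change was 0.91 ± 0.376 (SE), with a 95% interval of -0.01 to 1.84 and a limma adjusted p of 0.190. On the linear scale this is 1.88 times the Dicer_WT level, and the authors' deposited table, whose value is a ratio of arithmetic means, gives 1.98.

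The opposite arm, miR-378*, had the same order of aortas within the Dicer_KO group. Its relative quantities were 0.769, 1.23 and 1.06 in Dicer_WT aortas and 1.25, 2.69 and 2.86 in Dicer_KO aortas. The groups did not overlap in relative quantity, but the lowest Dicer_KO aorta stood only just above the highest Dicer_WT aorta. In Ct, before any reference RNA was used, the groups overlapped by a little. The Ct values were 25.065, 24.59 and 24.947 in Dicer_WT and 24.603, 23.687 and 23.604 in Dicer_KO aortas. The log2 fold change was 1.09 ± 0.387 (SE, limma adjusted p = 0.148), with a 95% interval of 0.13 to 2.04. In 9 of 377 assays (2.39%) every Dicer_KO aorta lay above every Dicer_WT aorta in relative quantity, and miR-378* and miR-33* were 2 of these 9. Of the 377 assays, 15 had a higher log2 fold change than miR-378* and 19 a higher one than miR-378.

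The proportion of the miR-378 arms was compared within each aorta. The log2 relative quantity of miR-378* minus that of miR-378 was -0.04, 0.07 and -0.03 in Dicer_WT aortas and 0.14, 0.35 and 0.05 in Dicer_KO aortas. The mean difference was 0.18 (exact permutation p = 0.2, two-sided, and 0.3 adjusted over the 3 differences), against a log2 fold change of 0.91 for miR-378 itself. Here too the lowest p possible is 0.1, so the test could not decide whether the proportion of the arms changed. Without Dicer_KO replicate 2 the mean difference was 0.09.

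The value of the miR-378 arms depended on Dicer_KO replicate 1. Without this aorta the log2 fold change was 1.27 for miR-378 (limma adjusted p = 0.0435) and 1.47 for miR-378* (adjusted p = 0.0327), both then past the threshold, as was miR-103 at -0.87 (adjusted p = 0.0453). The background moved with it, since 64 assays were then called, 55 lower and 9 higher, in place of 7. Over the 6 fits that each left out 1 aorta, miR-378 ranged from 0.63, without Dicer_KO replicate 3, to 1.27.

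Among markers of tissues that can be carried with an aorta, several were on average higher in Dicer_KO aortas, as miR-378 was, and none passed the threshold in limma. The erythrocyte markers, 2 of 3 on the cards and both tested (miR-451 and miR-486), had a mean log2 relative quantity of -0.998 to 0.85 in Dicer_WT and 1.00 to 1.65 in Dicer_KO aortas. The 3 liver markers had -0.80 to 0.73 in Dicer_WT and 0.47 to 1.23 in Dicer_KO aortas. Of the 7 striated muscle markers, 5 were tested, with -0.68 to 0.49 in Dicer_WT and -0.47 to 0.65 in Dicer_KO aortas, and the remaining 2, miR-208b and miR-499, were not detected in most aortas. That Dicer_WT range rested on miR-208, which gave no product in Dicer_WT replicate 2. The 4 striated muscle markers detected in all 6 aortas had means of 0.07, 0.04 and -0.11 in Dicer_WT and -0.08, -0.72 and 0.39 in Dicer_KO aortas. Their mean was lowest in Dicer_KO replicate 2 and highest in Dicer_KO replicate 3, the aorta in which miR-378 was highest. miR-499 was detected only in Dicer_WT replicate 1 (Ct 31.0), where miR-378 was lowest, and in Dicer_KO replicate 3 (Ct 29.8). The 3 brown fat markers had a mean of -0.10 to 0.07 in Dicer_WT and -0.21 to 0.05 in Dicer_KO aortas, in which members of opposite direction are averaged. Every Dicer_KO aorta was above every Dicer_WT aorta for miR-455 (log2 fold change 0.19) and below for miR-365 (-0.22), while the groups overlapped for miR-193b (-0.09). Over all assays the groups parted upwards in 2.39% and downwards in 32.6%. The limma adjusted p was 0.396 for miR-455 and 0.348 for miR-365, whose value lay above the median of all assays, -0.42. By aorta, the erythrocyte and liver lists were lowest in Dicer_WT replicate 3, whereas miR-378 was lowest in Dicer_WT replicate 1. U6, a reference RNA, moved with miR-378 too, being on the second card at -0.11, 0.41 and 0.44 relative to the reference mean in the Dicer_KO aortas. Without U6 among the references the log2 fold change of miR-378 was 0.99. The part of these markers in the value of miR-378 was not tested.

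**Figure D2:**
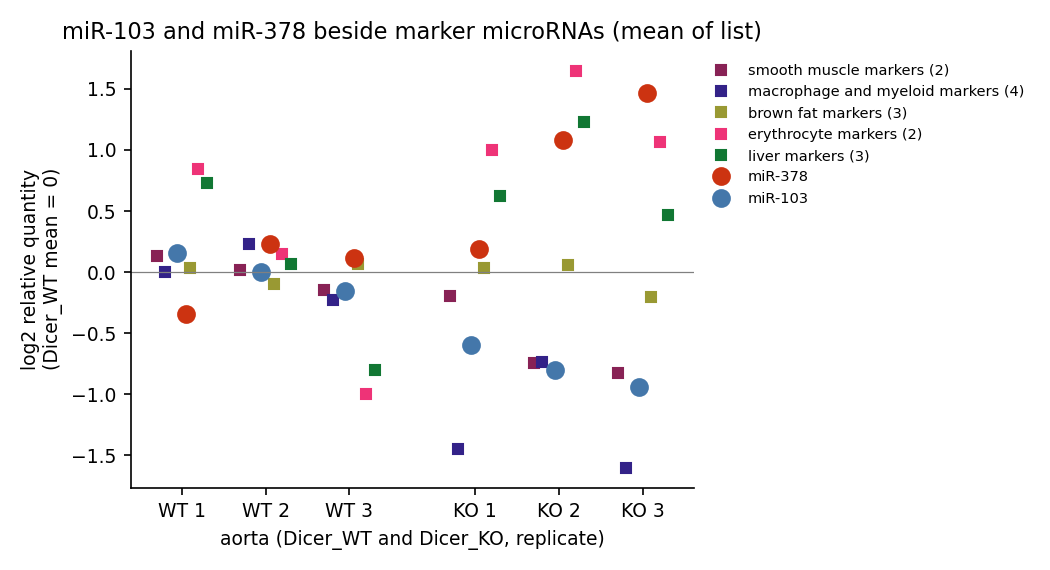
Log2 relative quantity (vertical axis, Dicer_WT mean at 0) of miR-103 and miR-378 in each of the 6 aortas (horizontal axis), beside the mean of 5 marker lists over markers detected in all aortas, with their number in brackets. The mean of the brown fat markers, whose members miR-455 and miR-365 differ in direction, lies between -0.21 and 0.07. Erythrocyte and liver markers are above 0 in all Dicer_KO aortas and lowest in Dicer_WT replicate 3. The mean of the myeloid markers is at -0.74 or below in all Dicer_KO aortas, although miR-142-3p among them is at -0.20, 0.25 and -0.27.

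miR-33*, from the Srebf2 intron, had a higher relative quantity in every Dicer_KO aorta, by a smaller amount. Its relative quantities were 1.05, 1.10 and 0.865 in Dicer_WT aortas and 1.48, 1.72 and 1.20 in Dicer_KO aortas. The groups did not overlap in relative quantity. Before any reference RNA was used they did overlap. The Ct values were 26.7, 26.9 and 27.3 in Dicer_WT and 26.5, 26.4 and 27.0 in Dicer_KO aortas. In relative quantity Dicer_KO replicate 3 was the lowest of its group, unlike for miR-378, where it was the highest. The log2 fold change was 0.54 ± 0.213 (SE, limma adjusted p = 0.179), with a 95% interval of 0.01 to 1.06, which is 1.45 times the Dicer_WT level. It shrank to 0.35 without normalization (limma adjusted p = 0.385) and to 0.29 relative to U6 alone, and reached 1.18 relative to U87 and Y1. The guide strand miR-33, which has another seed, was not analysed here, so whether its level followed that of miR-33* was not tested.

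The 3 assays of miR-378, miR-378* and miR-33* were all on the second card, where the median log2 fold change was -0.36 over 127 assays and 29.9% of assays lay above 0. On the first card, with miR-103 and miR-107, the median was -0.47 over 250 assays and 17.6% lay above 0. The part of the card in these values was not tested.

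The members themselves were compared within each aorta. The log2 relative quantity of miR-378 minus that of miR-103, with the Dicer_WT mean at 0, was -0.50, 0.22 and 0.27 in Dicer_WT aortas. It was 0.78, 1.88 and 2.41 in Dicer_KO aortas. Every Dicer_KO aorta lay above every Dicer_WT aorta, including Dicer_KO replicate 1, in which miR-378 alone did not stand out. In that aorta miR-378 was at 0.185 and miR-103 at -0.597, so the difference there came mostly from miR-103. The groups parted downwards for miR-103 as they did in 32.6% of all assays. How often differences between other assays part the groups was not computed. The mean difference was 1.69 (two-sided exact permutation p = 0.1, the lowest possible with 3 aortas a group, and 0.3 adjusted over the 3 differences). Since the assays were on different cards, card effects do not cancel, and without any normalization the mean difference was 1.73.

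**Figure D3:**
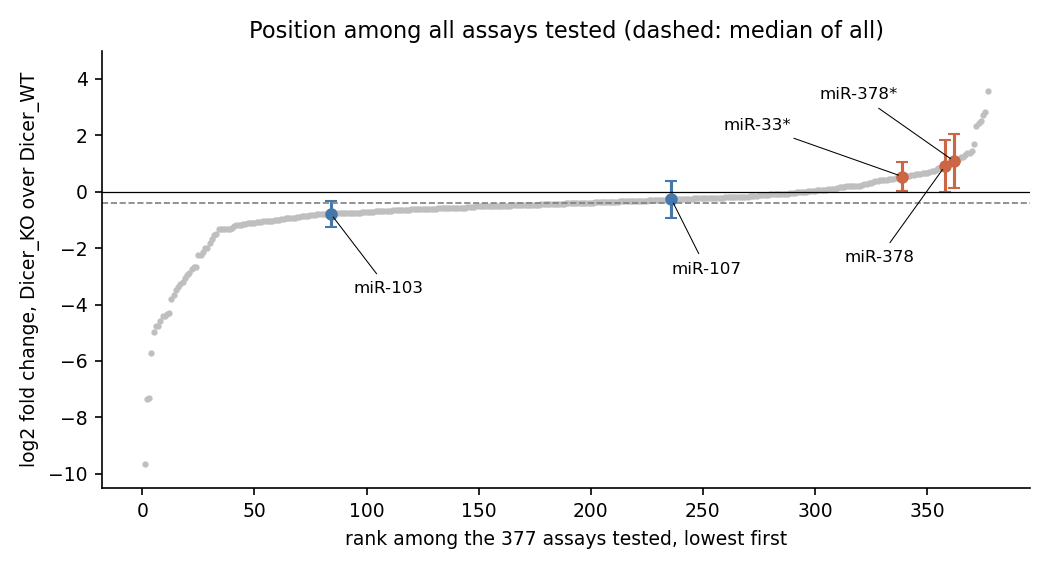
Log2 fold change of Dicer_KO over Dicer_WT (vertical axis) for the 377 assays tested, ordered from lowest to highest (horizontal axis), with the 95% limma interval for 5 named assays. The dashed line is the median of all assays, -0.42; miR-103 has rank 84 and miR-378 rank 358.

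The assays with the pattern most like miR-103 over the 6 aortas, among 329 others detected in all of them, were miR-425*, miR-326 and miR-301a. Their Pearson correlations of log2 relative quantity with miR-103 were 0.999, 0.997 and 0.995, and 0.995, 0.969 and 0.963 after the group means were removed. Such likeness was frequent, since 74 of the 329 assays had a correlation above 0.9 with miR-103. All points share the same 6 RNAs and reference RNAs. The relative quantities of miR-301a, for example, were 1.19, 0.939 and 0.893 in Dicer_WT and 0.553, 0.425 and 0.355 in Dicer_KO aortas.

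For miR-378 the most alike were miR-322, at 0.99, its own opposite arm miR-378*, at 0.99, and miR-503*, at 0.98. After the group means were removed the correlations were 0.98, 0.97 and 0.95. Likeness to miR-378 was rarer, with 10 of the 329 assays above 0.9. miR-322 had relative quantities of 0.860, 1.10 and 1.05 in Dicer_WT and 0.995, 1.98 and 2.26 in Dicer_KO aortas, so that here too Dicer_KO replicate 1 lay among the Dicer_WT aortas. Its log2 fold change was 0.72 (limma adjusted p = 0.226).

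Of 22 microRNAs known for acting on ABCA1 and other lipid genes, 18 were tested and 0 passed the threshold in limma, against 1.86% of all assays called. A log2 fold change below 0 was found for 17 (94.4%), against 295 of all 377 assays (78.2%), with a median of -0.34 against -0.42. The groups parted downwards for 7 of the 18 (38.9%), against 32.6% of all assays. The lowest was the myeloid miR-223, at -1.66 ± 0.346 (SE, adjusted p = 0.0641), followed by miR-301b, at -1.22 ± 0.219 (adjusted p = 0.0542). The highest were the hepatocyte microRNA miR-122, at 1.36 ± 0.687 (adjusted p = 0.228), and miR-10b, at -0.05 ± 0.170 (adjusted p = 0.810).

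In the list of insulin and glucose microRNAs, to which miR-103 and miR-107 belong, 0 of 22 passed in limma, against 1.86% of all assays. Below 0 were 20 (90.9%), against 78.2% of all assays, with a median of -0.40. The lowest were miR-124, at -1.30 ± 1.80 (SE, adjusted p = 0.592), whose value included an undetected well, and miR-184, at -1.17 ± 0.472 (adjusted p = 0.181). The highest were miR-802, at 2.44 ± 0.874 (adjusted p = 0.148), and the islet microRNA miR-375, at 1.24 ± 0.652 (adjusted p = 0.236). miR-103 was the third from the bottom of this list and miR-107 lay above its median.

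In the list of adipocyte and mitochondrial microRNAs, 15 of 18 were tested, 11 (73.3%, against 78.2% of all assays) were below 0 and the median was -0.23. miR-378* and miR-378 were its highest members, ahead of miR-193 at 0.22 ± 0.184 and miR-455 at 0.19 ± 0.164 (SE). The lowest member was miR-761, with Ct values of 31.1, 31.95 and 31.8 in Dicer_WT aortas and no product (Ct 40) in any Dicer_KO aorta, at least 9.22-fold lower when Ct 35 stands in for the missing product. It entered the test through the Dicer_WT aortas alone and had 1 set value in place of a Dicer_KO spread, so that its call in limma, 1 of 15 against 1.86% of all assays, is no support for the list; at a Ct cutoff of 32 and after quantile normalization there was no call. Next lowest was miR-494, at -1.01 ± 0.229 (adjusted p = 0.0691).

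A list of 40 microRNAs that lie in introns of protein-coding genes had 29 assays tested, miR-103, miR-107 and miR-378 among them. Of the 29, 0 passed in limma, against 1.86% of all assays, and 24 (82.8%) were below 0, against 78.2%, with a median of -0.35. Without those 3 assays, 22 of 26 (84.6%) were below 0 and the median was -0.37. The lowest were miR-330, at -3.80 ± 1.09 (SE, adjusted p = 0.102), detected in 1 of 3 Dicer_KO aortas, and the macrophage microRNA miR-511, hosted by the mannose receptor gene Mrc1, at -1.99 ± 0.340 (adjusted p = 0.0542). The highest were miR-208, from a cardiac myosin gene, at 0.93 ± 1.52 (adjusted p = 0.647), detected in 2 of 3 Dicer_WT aortas, and miR-378. Among the listed assays detected in all 6 aortas miR-378 was the highest.

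Direction held for the members under every choice of references or normalization and with each aorta left out, whereas size did not. The Ct cutoffs, treatments of undetected wells, filters and replicate block could not move their fold changes. The members lay well below every Ct cutoff in all aortas, so these settings say nothing about direction. Normalization moved the whole array, with the median of all assays from -0.64 without normalization to 0.16 relative to U87 and Y1. miR-103 ranged from -1.005, without normalization, to -0.27, relative to U87 and Y1, and stayed 0.29 to 0.56 below the median of all assays of the same setting. miR-378 ranged from 0.63 to 1.55 and stayed 0.87 to 1.79 above that median. miR-33* stayed 0.68 to 1.04 above it, and miR-107 lay on either side, from -0.18 to 0.48.

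**Figure D4:**
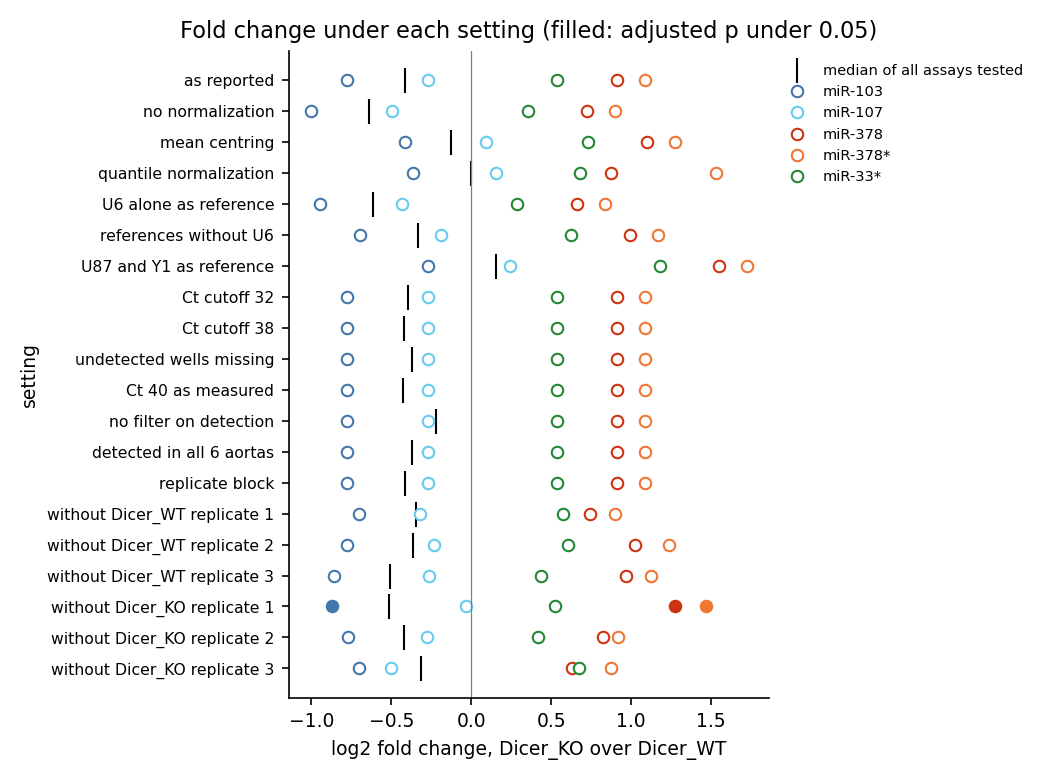
Log2 fold change of Dicer_KO over Dicer_WT (horizontal axis) of 5 assays under each setting (vertical axis); filled points have a limma adjusted p under 0.05 and black bars mark the median of all assays tested. The filled points, for miR-103, miR-378 and miR-378*, appear in the fit without Dicer_KO replicate 1.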

How the data were processed

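MicroRNAs in total RNA of 6 aortas were measured by TaqMan PCR after reverse transcription and preamplification, per the labels' protocols. The software behind the Ct values is not given in the sources used here. The deposited Ct table gives 40 for wells without product, and 5 cells with a decimal comma were read as decimals. The relative quantity deposited by the authors is a linear ratio. From the values, its log2 equals the mean Ct of the reference RNAs minus the assay's Ct, scaled to Dicer_WT (largest difference 5.22e-06). The authors' deposited fold change is a ratio of Dicer_KO over Dicer_WT.

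Wells at Ct 35 or above were set to Ct 35. A microRNA was tested if 2 or more of the 3 aortas of a group had it below that Ct, using limma 3.58.1 in R 4.3.3 on log2 values (lmFit, eBayes, two-sided, Benjamini-Hochberg over 377 assays), and differences within an aorta by exact permutation. The fit was tested on simulated data. Alternatives were other references and normalizations, Ct cutoffs of 32 and 38, other treatments of undetected wells, other filters, the replicate number as a block and leaving out each aorta. Named were the members, their opposite arms, miR-107, the 3 assays most alike by Pearson correlation, and from each list called assays and the 2 lowest and 2 highest (miR-193, miR-455 and single cell type markers in addition, after their values were seen). The members and lists were chosen with earlier results of these data known. List names were matched to assays, ignoring an arm label where the cards held 1 assay of that number. The number of aortas limits the precision.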

Additional observations from a re-analysis of the deposited data

How the results depend on the processing

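Over 19 alternatives, direction and side of the threshold were kept in 18 for miR-103, 18 for miR-378, 18 for miR-378*, 19 for miR-33* and 16 for miR-107. The exceptions of the first 3 came without Dicer_KO replicate 1. Ct cutoffs, treatments of undetected wells, filters and the replicate block could change the adjusted p of these assays but not their fold change. Only the normalizations and the fits without an aorta could have turned the direction. Leaving out each aorta in turn gave -0.87 to -0.70 for miR-103, 0.63 to 1.27 for miR-378 and 0.87 to 1.47 for miR-378*. miR-107 turned to 0.10 with mean centring, 0.16 after quantile normalization and 0.24 relative to U87 and Y1. The count of assays called, 7, became 12 with the references without U6, 26 at a Ct cutoff of 32, 13 with Ct 40 taken as measured and 22 over assays detected in all 6 aortas. It was 5 to 64 with 1 aorta left out, the 64 arising without Dicer_KO replicate 1, and 11 if Dicer_KO replicate 2 was left out. The cause was not tested.

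With the replicate number as a block, 7 assays were called, and miR-103 had an adjusted p of 0.0680, miR-378 0.0999, miR-378* 0.0831, miR-33* 0.0906 and miR-107 0.378 (limma). Equally numbered aortas of the 2 genotypes had deviations from their group means that correlated at 0.18, -0.10 and 0.15 over assays. These values cannot decide whether such aortas share more than a number, and that was not tested. The planned results for the guide strand miR-33 were not run. miR-103, miR-378, miR-107, miR-33* and miR-378* were detected in all 6 aortas. Undetected wells limit the values given for miR-761, miR-147, miR-330, miR-124 and miR-208.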
